A study of Homo sapiens with 36 samples.

Results

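Mitochondrial protein import and folding were followed here through 34 genes, chosen by name from the 25344 gene symbols of the count table. They are every row whose symbol starts with TOMM or TIMM (25 rows, with 0 pseudogene rows to leave out) together with HSPD1, HSPE1, HSPA9, TRAP1, LONP1, CLPP, CLPX, PMPCA and PMPCB. The cells were HMC3, an established human microglial line from ATCC, grown in serum-containing medium. They were given vehicle, 25 µM or 50 µM perfluorooctane sulfonate (PFOS), a persistent perfluorinated surfactant, and RNA was taken either directly after 24 h of exposure or after another 24 h in medium without PFOS (recovery). Each of the resulting 6 groups has 3 RNA-seq libraries, labelled biological replicates. The labels name neither the vehicle nor whether replicates came from separate cultures. The p-values therefore speak only of the spread among these libraries, which may be technical.

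Nearly all mitochondrial proteins are made in the cytosol and carried into the organelle. The TOM complex of the outer membrane is the common entry gate. TIM23 of the inner membrane takes proteins with a cleavable presequence, TIM22 inserts carrier proteins, and small TIM chaperones escort hydrophobic proteins through the space between the membranes. In the matrix mortalin (HSPA9) pulls proteins in, the processing peptidase (PMPCA and PMPCB) cuts off the presequence, the HSP60 and HSP10 chaperonin (HSPD1 and HSPE1) folds the product, and the LONP1 and CLPXP proteases remove misfolded protein.

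Total counts per library were between 582233 and 4346627, and the import genes took 0.435% to 0.615% of them. Levels are given in CPM, the count scaled to library size and TMM factor, and differences as log2 changes ± standard error (SE) from edgeR's quasi-likelihood test. A gene was called where its p-value, adjusted over the 9847 genes tested (Benjamini-Hochberg), was under 0.05. Of the 34 import genes, 33 passed the filter on low counts. TOMM20L, a TOMM20-like gene with 8 counts in all libraries together, did not. As to the cell type, 1 of 11 microglia and macrophage markers passed the filter, CD68, at 15.6 to 78.5 CPM, and AIF1, CX3CR1 and C1QA were at 0 in every library. Over all libraries the summed level of the list was 17.4 to 79.5 CPM, close to the range of CD68 alone. By group this sum was 22.1 to 23.1 CPM (vehicle), 19.4 to 34.3 CPM (25 µM) and 56.2 to 79.5 CPM (50 µM) at 24 h, and 17.4 to 29.1 CPM (vehicle), 21.8 to 31.3 CPM (25 µM) and 52.8 to 65.1 CPM (50 µM) after recovery. For mesenchymal cells COL3A1 was at 0 in every library and the other 5 of 6 markers passed. Their summed level was 3511 to 3607 CPM (vehicle), 2879 to 3264 CPM (25 µM) and 1690 to 1958 CPM (50 µM) at 24 h, and 2746 to 3465 CPM (vehicle), 2450 to 2904 CPM (25 µM) and 1090 to 2422 CPM (50 µM) after recovery. A list of 3 epithelial markers, of which 1 passed (KRT8), summed to 23.5 to 61.1 CPM over all libraries. The part of these lists in the results below was not tested. In bulk RNA, fewer cells of a type and less RNA per cell cannot be told apart.

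At 24 h few of the mitochondrial import genes were called. The called genes act in the matrix, where HSPD1, HSPE1, TRAP1, PMPCA, PMPCB, CLPP and CLPX were not called. HSPA9, the motor chaperone mortalin, and LONP1, the main matrix protease, rose at 50 µM, and LONP1 alone was called at 25 µM. At 25 µM DESeq2 called HSPA9 as well (1.51% of all genes called). With only the libraries of the 25 µM comparison in the fit HSPA9 and TRAP1 were called as well (4.3% of all genes). No member was lower by the test at 24 h at either dose. At 50 µM 2 of 33 members were called, 6.06%, against a background of 18.8% of all genes tested (9.18% higher, 9.59% lower), and at 25 µM 1 of 33, against 1.24% (0.782% higher, 0.457% lower). With only the libraries of the 50 µM comparison in the fit 8 members were called, and 29.3% of all genes. That fit added CLPX, PMPCB, TIMM13, TIMM17B, TOMM7 and TRAP1. The median log2 change of the members was 0.16 at 50 µM and 0.05 at 25 µM, beside 0.005 and -0.004 over all genes. The 25 and 50 µM comparisons at a time point share their vehicle libraries.

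**Figure D1:**
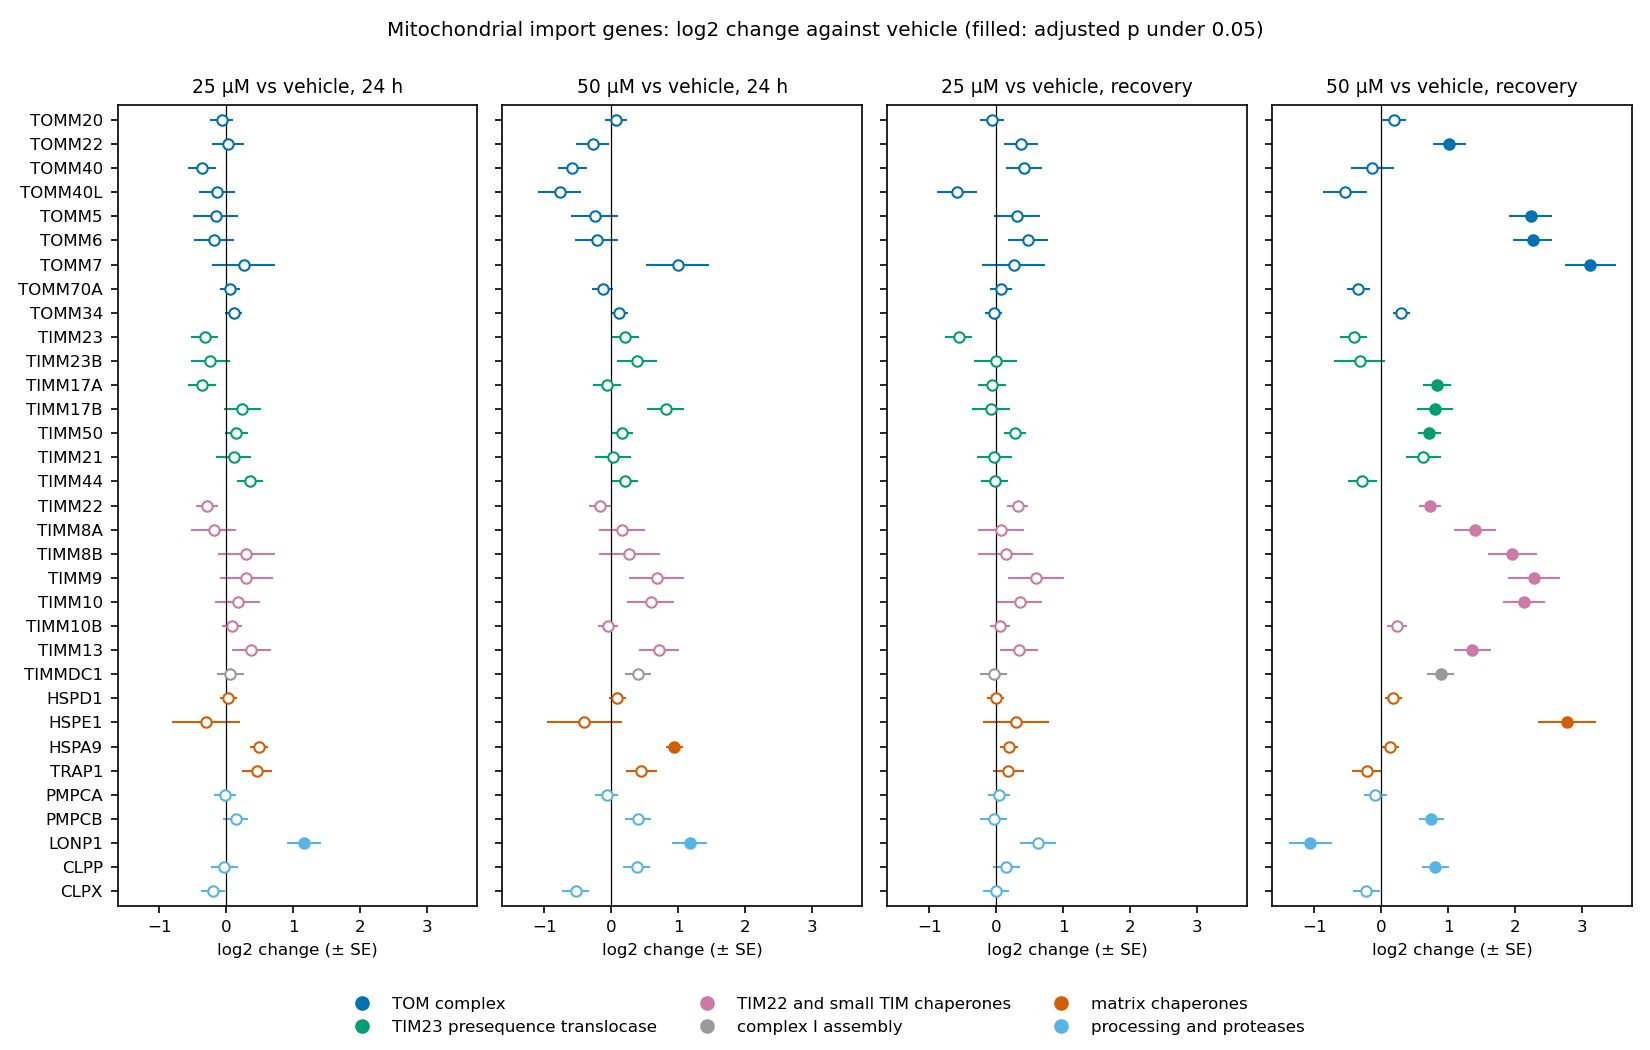
Log2 change against vehicle (x axis) of the 33 tested import genes (rows, coloured by role), in the 4 comparisons of PFOS with vehicle. Points are edgeR estimates, bars are ± SE, and filled points have an adjusted p under 0.05. Filled points number 1, 2 and 0 in the first panels and 18 in the panel of 50 µM after recovery, where LONP1 alone of the filled genes lies below 0.

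HSPA9 (chr5:138553756-138575401, GRCh38.p14) showed graded levels at 24 h. Its libraries had 632, 820 and 723 CPM with vehicle, 1018, 1062 and 970 CPM at 25 µM and 1414, 1326 and 1426 CPM at 50 µM. The libraries of the 3 doses did not overlap, and each step lay higher than the one before. The means were 725 ± 94.3 CPM with vehicle, 1017 ± 46 CPM at 25 µM and 1389 ± 54.7 CPM at 50 µM (SD, n = 3 each). At 50 µM the log2 change was 0.94 ± 0.13 (edgeR adjusted p = 3.01e-05), a 1.91-fold increase that was called in 12 of 12 alternative settings. At 25 µM it was 0.49 ± 0.13 and missed the threshold (edgeR adjusted p = 0.0851). The 50 µM level was above the 25 µM level by 0.45 ± 0.13 (edgeR adjusted p = 0.0396), making HSPA9 the only member called between the doses at 24 h, against 7.4% of all genes (3.79% higher, 3.62% lower). With any 1 of those 6 libraries left out that difference was not called.

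LONP1 (chr19:5691834-5720452) rose at both doses. Its libraries had 40.0, 50.4 and 57.7 CPM with vehicle, 112, 121 and 104 CPM at 25 µM and 116, 80.0 and 142 CPM at 50 µM, so that every PFOS library lay above every vehicle library. The log2 changes were 1.16 ± 0.26 at 25 µM (edgeR adjusted p = 0.0239) and 1.17 ± 0.26 at 50 µM (edgeR adjusted p = 0.00305). The call at 50 µM held in 12 of 12 alternative settings, while the call at 25 µM was lost when any 1 of its 6 libraries was left out, with adjusted p up to 0.132. Between the doses the log2 difference was 0.02 ± 0.25 (edgeR adjusted p = 0.983), which does not show that the doses act alike.

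The other matrix chaperones were not called at 24 h. HSPD1, the large chaperonin subunit, had 998, 944 and 966 CPM at 50 µM, against 870, 960 and 905 CPM with vehicle, a log2 change of 0.09 ± 0.13. HSPE1, its small partner, had 11.4, 10.8 and 6.63 CPM, against 17.6, 10.4 and 10.9 CPM. In both genes the groups overlapped. TRAP1, the HSP90 relative of the matrix, had log2 changes of 0.46 ± 0.22 at 25 µM and 0.45 ± 0.23 at 50 µM, and neither passed the test (edgeR adjusted p = 0.579 and 0.174), although its PFOS libraries lay above the vehicle libraries at both doses.

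**Figure D2:**
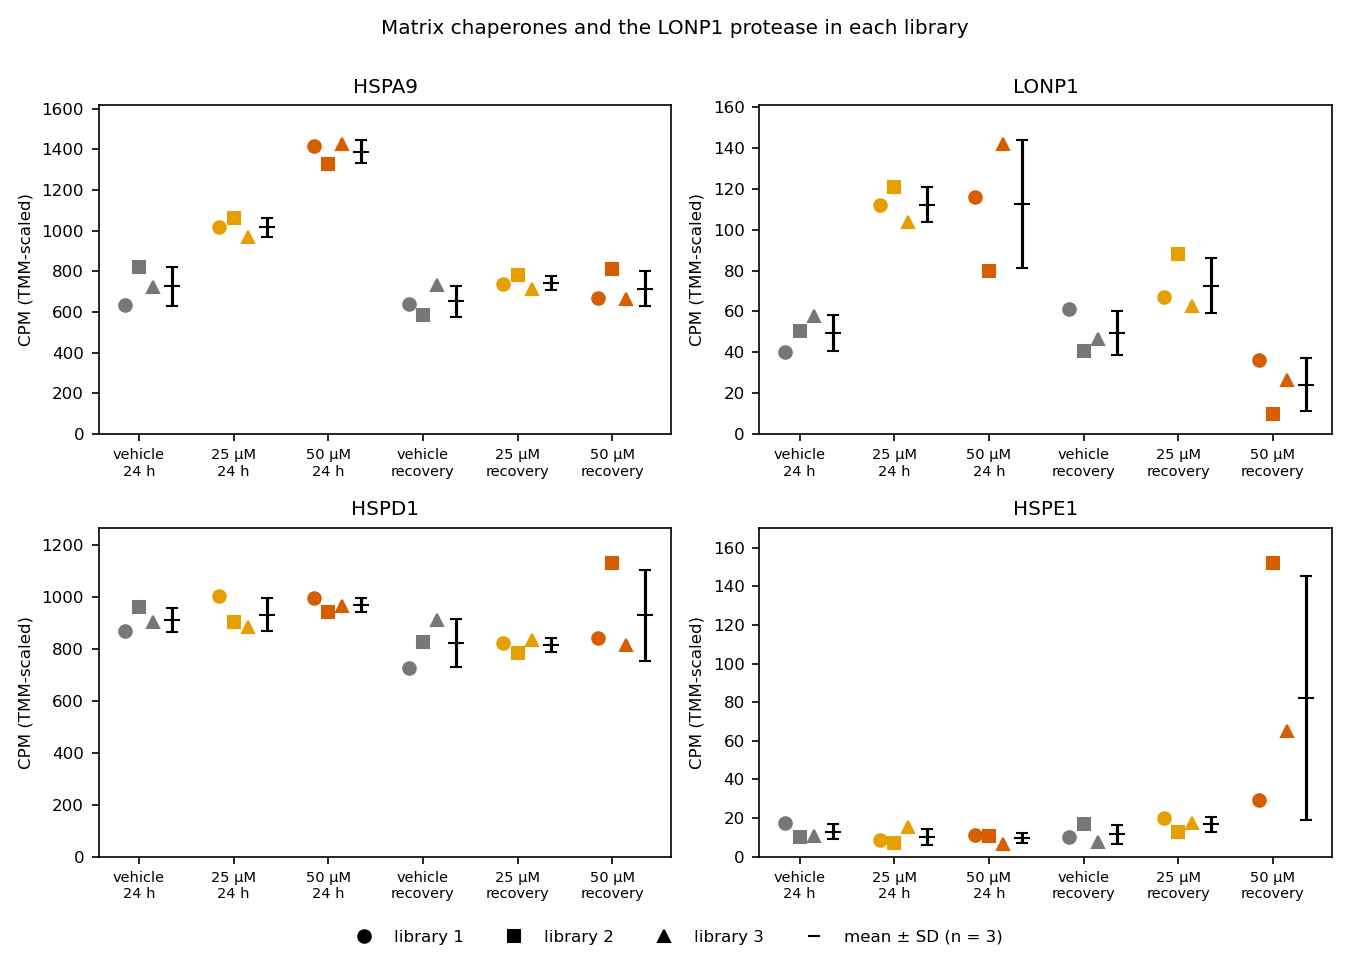
CPM of HSPA9, LONP1, HSPD1 and HSPE1 (y axes, starting at 0) in each library of the 6 groups (x axis). Symbols are single libraries by replicate number, and bars are means ± SD of 3 libraries. HSPA9 and LONP1 stand high at 24 h with PFOS and HSPE1 stands high after recovery from 50 µM, while HSPD1 stays between 728 and 1131 CPM in all 18 libraries.

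The promoters of these 4 genes are shown from RefSeq (GRCh38.p14, 250 bases before to 50 after the gene start), since HSPA9 and LONP1 both rose at 24 h and since HSPE1 rose after recovery while HSPD1, which starts beside it, was not called. The HSPD1 and HSPE1 genes lie head to head on opposite strands with starts 105 bases apart, and their windows overlap by 204 bases. Capitals mark a heat shock element in HSPA9 (letters GAANNTTC or TTCNNGAA) and a site of NRF1 (GCGCA, any base, then GCGC, on either strand) in the others. NRF1 is a transcription factor known for sites before nuclear genes of mitochondrial proteins.
HSPA9, chr5:138575352-138575651, minus strand: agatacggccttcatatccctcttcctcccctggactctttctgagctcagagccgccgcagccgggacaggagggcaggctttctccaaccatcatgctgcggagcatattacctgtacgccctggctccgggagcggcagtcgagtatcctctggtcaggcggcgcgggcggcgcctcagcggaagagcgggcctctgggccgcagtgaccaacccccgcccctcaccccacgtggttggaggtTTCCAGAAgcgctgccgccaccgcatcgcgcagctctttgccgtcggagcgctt
LONP1, chr19:5720403-5720702, minus strand: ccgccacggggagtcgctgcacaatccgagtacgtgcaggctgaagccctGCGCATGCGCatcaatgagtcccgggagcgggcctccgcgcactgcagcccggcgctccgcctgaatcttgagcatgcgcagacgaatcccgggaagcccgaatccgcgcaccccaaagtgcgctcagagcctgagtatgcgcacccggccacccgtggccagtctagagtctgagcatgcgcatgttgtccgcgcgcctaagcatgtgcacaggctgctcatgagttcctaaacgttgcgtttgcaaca
HSPD1, chr2:197500225-197500524, minus strand: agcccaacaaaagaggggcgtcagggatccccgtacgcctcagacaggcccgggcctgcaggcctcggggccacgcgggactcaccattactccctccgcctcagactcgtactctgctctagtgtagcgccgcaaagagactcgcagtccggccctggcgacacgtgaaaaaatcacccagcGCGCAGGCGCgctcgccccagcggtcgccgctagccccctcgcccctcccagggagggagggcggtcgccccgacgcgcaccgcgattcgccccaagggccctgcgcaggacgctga
HSPE1, chr2:197500129-197500428, plus strand: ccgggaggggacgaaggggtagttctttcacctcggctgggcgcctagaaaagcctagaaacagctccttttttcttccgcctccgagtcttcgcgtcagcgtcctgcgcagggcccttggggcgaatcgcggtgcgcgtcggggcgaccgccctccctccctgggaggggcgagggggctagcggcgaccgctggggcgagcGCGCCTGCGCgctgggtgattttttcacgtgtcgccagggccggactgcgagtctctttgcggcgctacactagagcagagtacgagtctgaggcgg
Of 31 import genes with a promoter in the table, 8 held the NRF1 letters (25.8%, against 5.78% of all 35116 promoters), namely CLPX, HSPD1, HSPE1, LONP1, TOMM20, TOMM34, TOMM40 and TOMM7. The marked letters of HSPD1 and HSPE1 are the same bases read on opposite strands, so that a single shared site counts for both genes. The letters CCGGAAG, bound by ETS factors, were in 12 (38.7%, against 10.3%), among them both TIMM23 and its nearly identical copy TIMM23B. The composite C/EBP-ATF letters TGATGCAA, read by the stress factors ATF4 and DDIT3, were in PMPCB and TIMM22 (6.45%, against 0.866%), and heat shock letters were in HSPA9, TIMM10 and TOMM70A (9.68%, against 13.5%). Both strands were searched, and in TIMM10 the heat shock letters overlap an ETS match. These matches describe letters in a window, and CLPP, TIMM8B and TOMM5 had no entry. A single promoter was taken per import gene, while the 35116 are all promoters of the reference and not limited to the genes tested. The shares therefore compare unlike sets, and whether other expressed genes hold the letters as often was not tested.

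The remaining genes at 24 h spread around 0. Of the TOM genes 0 of 9 were called at either dose. At 50 µM, TOMM7, which steadies the TOM complex, had 17.6, 15.1 and 9.69 CPM, against 4.70, 7.93 and 6.48 CPM with vehicle (log2 change 0.99 ± 0.47, edgeR adjusted p = 0.156). TOMM40, the pore, and its relative TOMM40L had log2 changes of -0.58 ± 0.22 and -0.77 ± 0.32 (edgeR adjusted p = 0.0751 and 0.0978). Of TIM23 genes 0 of 7 and of TIM22 and small TIM genes 0 of 7 were called at either dose, with TIMM17B nearest to the threshold (0.81 ± 0.28 at 50 µM, edgeR adjusted p = 0.052). The unfoldase CLPX had a log2 change of -0.53 ± 0.20 (edgeR adjusted p = 0.0647). PFOS and vehicle libraries did not overlap in 13 of 33 members at 50 µM (background 41.4%) and in 7 at 25 µM (background 22.9%).

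Partners of the import machinery were read from 4 further lists at 50 µM and 24 h. Among the motor partners and co-chaperones, DNAJA3, a J-protein that works with HSPA9, rose by 0.52 ± 0.16 (1 of 7 tested, 14.3%, against 18.8% of all genes). In the list of outer membrane sorting, disulfide relay and cristae genes CHCHD4, the import receptor and oxidase of the intermembrane space, rose by 0.74 ± 0.23 (1 of 16, 6.25%). Among inner membrane insertion and processing genes OXA1L, the insertase, rose by 0.72 ± 0.15, PITRM1, which degrades cut presequences, by 0.62 ± 0.18 and the prohibitin PHB2 by 0.50 ± 0.15 (3 of 14, 21.4%). These shares are near or below the 18.8% of all genes, so the counts are no result about the partners. None of these lists had a called gene that was lower. Of the stress regulators ATF4 rose by 1.53 ± 0.18 and DDIT3 by 2.49 ± 0.26 (2 of 3 tested, with HSF1 at -0.14), and at 25 µM ATF4 by 0.84 ± 0.18, the only gene of the 4 lists called at that dose. The listed regulators ATF5 and CEBPB, with 93 and 27 counts in all libraries together, did not pass the filter. ATF4, DDIT3, HSPA9, LONP1 and OXA1L had edgeR adjusted p-values at 50 µM between 5.11e-07 and 0.00305, and the other 4 genes called here between 0.0202 and 0.0282.

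After recovery from 25 µM PFOS 0 of 33 members were called, as were 0 of 9847 genes by edgeR (693 genes, 7.04%, had an unadjusted p under 0.05, and DESeq2 called 1 gene and 0 members). Among the members 2 had an unadjusted p under 0.05. These were LONP1, at 67.1, 88.2 and 62.7 CPM, against 61.3, 40.6 and 46.7 CPM with vehicle (0.62 ± 0.27, edgeR adjusted p = 0.644), and TIMM23, the presequence channel, at 855, 589 and 850 CPM, against 1049, 1380 and 933 CPM (-0.56 ± 0.20, edgeR adjusted p = 0.565). Levels of TIMM23 are uncertain, since its copy TIMM23B is nearly identical and how shared reads were counted is not given. HSPA9 had 736, 782 and 712 CPM, against 640, 583 and 734 CPM, a log2 change of 0.19 ± 0.13. Libraries did not overlap in 5 of 33 members (background 13.8%), and the median log2 change was 0.07.

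After recovery from 50 µM PFOS 17 import genes rose and 1, LONP1, fell. The small subunits moved most: TOMM7, HSPE1, TIMM9, TOMM6, TOMM5 and TIMM10 were each 4.38-fold to 8.70-fold higher than in recovered vehicle cells. Without 50 µM library 2 their log2 changes, 2.13 to 3.12 with all libraries, were 1.51 for TIMM9, 1.52 for TIMM10, 1.59 for TOMM5, 1.78 for TOMM6, 1.90 for HSPE1 and 2.54 for TOMM7. The called share was 54.5% of the members, against 28.4% of all genes tested (17.7% higher and 10.7% lower). The members' median log2 change was 0.72, beside -0.048 over all genes.

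These 3 libraries stood apart from the other 15 in ways that move with the result. Ribosomal protein genes, 86 in number and mostly short, took 2.94%, 7.58% and 5.03% of the counts in libraries 1, 2 and 3, against 1.21% to 2.43% in the other 15. The called import genes followed the same order, since 16 of the 17 that rose were lowest in library 1 and highest in library 2, with CLPP as the exception. Their median log2 ratio to the mean of the vehicle recovery libraries was 0.55, 1.75 and 1.40 in libraries 1, 2 and 3 (pseudocount 1 CPM). Without library 2, 14 members were called and 16.3% of all genes. With only the 6 libraries of this comparison in the fit 8 members were called and 8.95% of all genes, all 8 of them among the 17 that rose. In that fit CLPP, LONP1, PMPCB, TIMM17A, TIMM17B, TIMM22, TIMM50, TIMM8A, TIMMDC1 and TOMM22 lost their calls. What sets these libraries apart was not tested.

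The small TOM subunits TOMM5, TOMM6 and TOMM7 rose together. TOMM7 (chr7:22812974-22822849) had 27.9, 115 and 70.9 CPM after 50 µM, against 6.13, 9.70 and 7.78 CPM with vehicle (log2 change 3.12 ± 0.38, edgeR adjusted p = 2.09e-05). TOMM6 (chr6:41787694-41789895) had 121, 387 and 249 CPM, against 46.0, 61.8 and 49.0 CPM (2.26 ± 0.29, edgeR adjusted p = 2.72e-05). TOMM5 (chr9:37588413-37592597) had 91.8, 393 and 214 CPM, against 41.4, 58.4 and 47.6 CPM (2.23 ± 0.32, edgeR adjusted p = 5.23e-05). In all 3 genes every 50 µM recovery library lay above each of the other 15 libraries of the study, and the calls held in 12 of 12 alternative settings. TOMM22, the central receptor, had 86.0, 235 and 156 CPM, against 81.2, 83.9 and 71.9 CPM, and its call (1.02 ± 0.24, edgeR adjusted p = 0.0037) was lost without library 2.

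The larger TOM parts were not called. The receptor TOMM20 had a log2 change of 0.19 ± 0.18, the pore TOMM40 of -0.13 ± 0.32, its relative TOMM40L of -0.54 ± 0.33, the carrier receptor TOMM70A (TOMM70 in RefSeq) of -0.34 ± 0.17 and the cytosolic co-chaperone TOMM34 of 0.30 ± 0.13. The TOMM7 promoter is shown because this gene had the largest change among the members, with the NRF1 match in capitals.
TOMM7, chr7:22822800-22823099, minus strand: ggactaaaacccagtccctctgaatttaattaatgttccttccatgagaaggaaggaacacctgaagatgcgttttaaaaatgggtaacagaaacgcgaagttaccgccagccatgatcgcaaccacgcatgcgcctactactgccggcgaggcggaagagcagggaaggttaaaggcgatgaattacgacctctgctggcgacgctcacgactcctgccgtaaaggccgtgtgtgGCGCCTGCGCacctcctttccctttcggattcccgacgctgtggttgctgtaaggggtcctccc

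Among TIM22 and small TIM genes 6 of 7 rose (85.7% called, against 28.4% of all genes, 17.7% higher), with a median log2 change of 1.40. TIMM8A, TIMM8B, TIMM10, TIMM10B and TIMM13 span under 5000 bases in the genome. Of all genes that short 50.3% rose, with a median log2 change of 0.71. With a smooth span trend removed from each library TIMM13, TIMM22 and TIMM8A were not called. The part of gene span in these changes was not tested. The partners TIMM9 and TIMM10, which form a ring-shaped chaperone, changed by 2.28 ± 0.39 and 2.13 ± 0.31. TIMM9 (chr14:58408494-58427531) had 16.3, 79.3 and 38.9 CPM, against 8.43, 7.86 and 12.4 CPM with vehicle (edgeR adjusted p = 0.000198). TIMM10 (chr11:57528464-57530754) had 40.7, 147 and 80.6 CPM, against 14.6, 26.5 and 18.3 CPM (edgeR adjusted p = 5.23e-05). In both genes the 3 libraries lay above all vehicle recovery libraries, although library 1 of TIMM9 was within the range of the other groups.

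The second pair of small chaperones, TIMM8A with TIMM13, and the TIMM8A relative TIMM8B rose as well. TIMM8B had 29.1, 148 and 91.7 CPM, against 19.9, 29.9 and 17.9 CPM, so that library 1 lay inside the vehicle range (1.96 ± 0.37, edgeR adjusted p = 0.000548, and 1.33 without 50 µM library 2). TIMM8A had 20.9, 61.9 and 44.5 CPM, against 9.96, 17.0 and 20.1 CPM (1.40 ± 0.32, edgeR adjusted p = 0.00248). TIMM13 had 62.8, 131 and 103 CPM, against 38.3, 45.9 and 30.7 CPM (1.36 ± 0.28, edgeR adjusted p = 0.00116). For each of them library 1 gave the smallest rise. TIMM22, the carrier channel, rose by 0.73 ± 0.16, and TIMM10B, the last of the list, had a log2 change of 0.24 ± 0.15 that was not called.

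**Figure D3:**
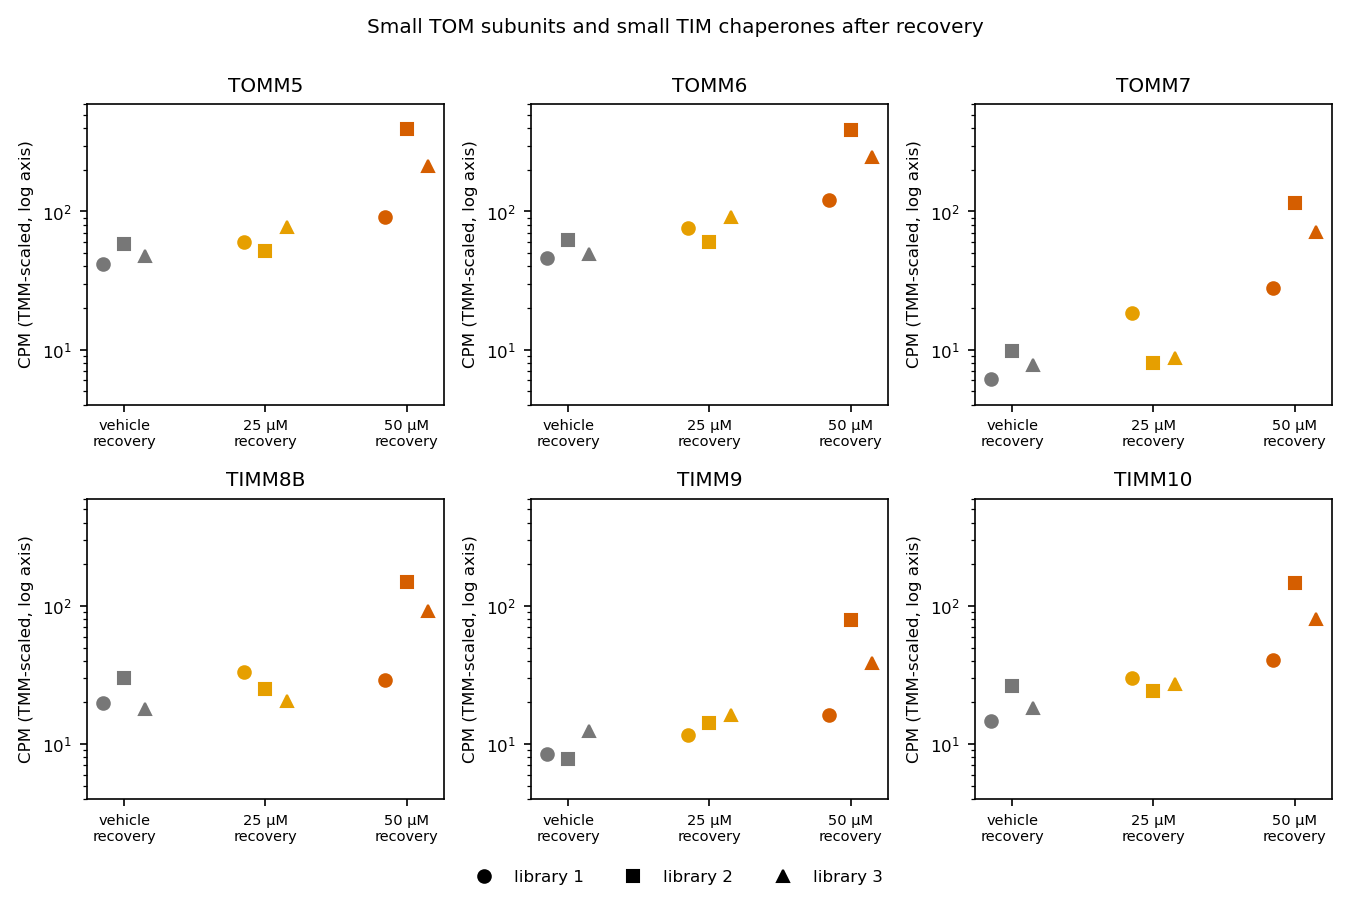
CPM (y axis, log scale) of 3 small TOM subunits and 3 small TIM chaperones in each recovery library, by dose (x axis). Symbols are single libraries by replicate number. After 50 µM library 2 is highest and library 1 lowest in all 6 genes. The 25 µM libraries lie below 50 µM libraries 2 and 3 in each gene. Some of them are within the vehicle range and others above it, such as TOMM7 in library 1 (18.4 CPM, against up to 9.70 CPM).

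Of the TIM23 genes 3 of 7 rose (42.9% called, against 28.4% of all genes), by 0.72 to 0.83 on the log2 scale. TIMM17A had 208, 444 and 335 CPM, against 155, 205 and 194 CPM (0.83 ± 0.21, edgeR adjusted p = 0.00556), and its paralog TIMM17B changed by 0.80 ± 0.27 and the presequence receptor TIMM50 by 0.72 ± 0.17. The TIMM17B call (edgeR adjusted p = 0.0335) was lost in 6 of 12 alternative settings. TIMM21, TIMM44, TIMM23 and TIMM23B were not called, at 0.63 ± 0.26, -0.28 ± 0.22, -0.41 ± 0.20 and -0.32 ± 0.38. TIMMDC1, an assembly factor of respiratory complex I, had 93.0, 183 and 140 CPM, against 64.3, 74.2 and 85.6 CPM (0.89 ± 0.20, edgeR adjusted p = 0.00185).

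Of the chaperonin pair, the small subunit rose after recovery from 50 µM and the large subunit was not called. The difference between these genes was not tested. HSPE1 (chr2:197500379-197503449) had 29.1, 152 and 65.3 CPM, against 9.96, 17.0 and 7.78 CPM with vehicle, a log2 change of 2.77 ± 0.43 (edgeR adjusted p = 8.98e-05). HSPD1 (chr2:197486584-197500274) had 844, 1131 and 815 CPM, against 728, 828 and 912 CPM, and its change of 0.18 ± 0.13 was not called (edgeR adjusted p = 0.343). The HSPE1 libraries lay above all other 15, and those of HSPD1 overlapped with vehicle. The readthrough gene HSPE1-MOB4 had 0 counts in every library and its neighbour MOB4 had 25 in all. HSPA9, raised at 24 h, was not called after recovery, at 667, 813 and 664 CPM, against 640, 583 and 734 CPM (0.13 ± 0.13, edgeR adjusted p = 0.479), and TRAP1 had a log2 change of -0.21 ± 0.23.

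Among proteases and processing enzymes 2 of 5 rose and LONP1 fell (60.0% called, against 28.4% of all genes). PMPCB, the catalytic processing subunit, rose by 0.75 ± 0.19 while its partner PMPCA had a change of -0.09 ± 0.17. The PMPCB call was lost without 50 µM library 2 (0.47) and with only these 6 libraries in the fit. CLPP, the peptidase, rose by 0.81 ± 0.20 while its unfoldase CLPX had a change of -0.22 ± 0.20. LONP1 had 36.0, 10.0 and 26.4 CPM, against 61.3, 40.6 and 46.7 CPM, each 50 µM library below each vehicle library (-1.06 ± 0.32, edgeR adjusted p = 0.0171). Its call was lost without vehicle library 1, without 50 µM library 2 (log2 change -0.61) and with only these 6 libraries in the fit. The span of LONP1 overlaps RPL36, a ribosomal protein gene that had 217, 801 and 465 CPM, against 82.7, 99.8 and 50.8 CPM, and with no strand information the division of shared reads was not tested.

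Gene span moved with these changes. Across the 33 members Spearman's rho between log2 change and span was -0.62 after recovery from 50 µM, and -0.307 across 9806 genes, where genes are not independent replicates. Of members spanning under 5000 bases 9 of 11 rose (50.3% of all such genes), of those from 5000 to 20000 bases 6 of 13 (27.6%), and of those of 20000 bases or more 2 of 9 (9.38%). Within a library, the Spearman correlation between gene span and the log level relative to the vehicle libraries of the same time was -0.283, -0.218 and -0.359 in the 50 µM recovery libraries, against -0.253 to 0.217 in the other 15. With a smooth span trend removed from each library, 14 members were called, 13 of them among the 18, and TIMM13, TIMM17B, TIMM22, TIMM8A and TOMM22 were not. The gene gained was TOMM40L, which this setting also gained at 50 µM and 24 h. Its log2 changes in the main fit were negative at both times. All genes called with the trend removed were 26.5% after recovery and 18.4% at 24 h. HSPE1, TOMM5, TOMM6, TOMM7, TIMM8B, TIMM9 and TIMM10 remained called, with log2 changes then of 1.10 for TIMM8B, 1.33 for TIMM10, 1.43 for TOMM6, 1.64 for TOMM5 and 2.08 for HSPE1.

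**Figure D4:**
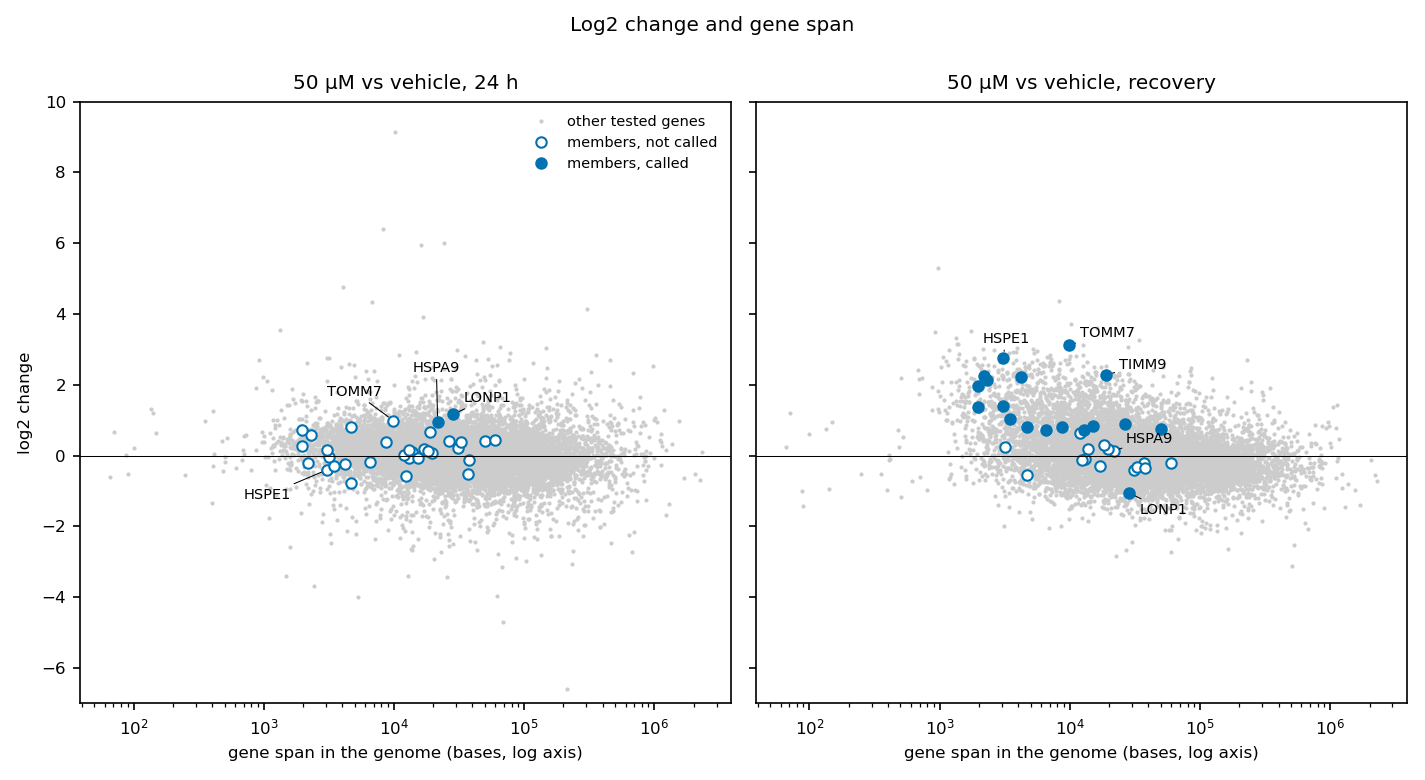
Log2 change against vehicle (y axis) by gene span in the genome (x axis, log scale) at 50 µM, at 24 h and after recovery. Grey dots are other tested genes, and blue circles are the 33 import genes, filled where called. After recovery the filled circles gather at short spans with changes up to 3.12, and LONP1 is the only one below 0.

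After recovery from 50 µM the called shares of the 3 partner lists were 42.9%, 43.8% and 21.4%, against 28.4% of all genes, so that the inner membrane list was near the background. DNAJC19, DNAJC15 and GRPEL1, helpers of the HSPA9 motor, rose by 2.11 ± 0.36, 1.84 ± 0.40 and 1.04 ± 0.22 (3 of 7 tested, edgeR adjusted p = 0.000229, 0.00181 and 0.00122). Their 50 µM libraries spread widely, at 58.5 ± 35.6, 30.4 ± 22.8 and 149 ± 59 CPM (SD, n = 3 each). How far the calls of partner genes rest on single libraries or on gene span is not given here. In the outer membrane, disulfide relay and cristae list 7 of 16 rose, among them the cristae subunits C19orf70 and MINOS1 by 2.30 ± 0.35 and 1.91 ± 0.31, and in the inner membrane list 3 of 14 rose (OXA1L, PARL and PHB). Of the regulators DDIT3 rose by 1.86 ± 0.24 and ATF4 by 0.57 ± 0.18 (edgeR adjusted p = 2.72e-05 and 0.0191). The third tested regulator HSF1, which drives heat shock genes, had a log2 change of -0.86 ± 0.33 that was not called against vehicle (edgeR adjusted p = 0.0545), and it was lower at 50 than at 25 µM after recovery by the test (-0.97 ± 0.33, edgeR adjusted p = 0.0407). None of these lists had a called gene that was lower than vehicle.

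Between the doses after recovery, 14 members were higher and LONP1 lower at 50 than at 25 µM (45.5% called, against 22.1% of all genes, 14.7% higher and 7.38% lower). TOMM7 differed by 2.86 ± 0.41, HSPE1 by 2.47 ± 0.45 and LONP1 by -1.68 ± 0.32 (edgeR adjusted p = 0.000392, 0.000908 and 0.00115). With only the 6 libraries of this comparison in the fit 0 members and 0 genes were called.

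The 50 µM effect itself differed between recovery and 24 h in 11 members, more positive in 9 and more negative in HSPA9 and LONP1 (33.3% called, against 19.1% of all genes, 11.6% positive and 7.42% negative). For HSPE1 the difference of the log2 changes was 3.17 ± 0.70 (edgeR adjusted p = 0.00506), and for TOMM6 and TOMM5 it was 2.48 ± 0.43 and 2.48 ± 0.47. For HSPA9 it was -0.80 ± 0.19 (edgeR adjusted p = 0.0067) and for LONP1 -2.23 ± 0.41 (edgeR adjusted p = 0.00156). The values of these matrix genes thus lay above vehicle at 24 h, with HSPA9 near vehicle and LONP1 below it after recovery. At 25 µM the same difference was called for 0 of 33 members (2 genes in all by edgeR, 0.0203%, and 0 members by DESeq2), with 2 members at an unadjusted p under 0.05 (background 4.65%).

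Without PFOS, 1 import gene differed between the time points. TOMM40, the pore of the outer membrane gate (chr19:44891254-44903689), had 13.8, 9.43 and 11 CPM in vehicle cells after recovery, against 48.2, 49.4 and 29.4 CPM in vehicle cells at 24 h, a log2 change of -1.91 ± 0.23 (edgeR adjusted p = 0.00063). The call held in 12 of 12 alternative settings, and 0.975% of all genes were called in this comparison. At all doses the recovery libraries had 6.95 to 15.9 CPM and the 24 h libraries 25.9 to 49.4 CPM, with no overlap. TOMM40 is reported here after its values were seen. AFG3L2, a protease of the inner membrane and the only called gene of the 4 further lists in this comparison, differed by -1.05 ± 0.21 (edgeR adjusted p = 0.0179).

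**Figure D5:**
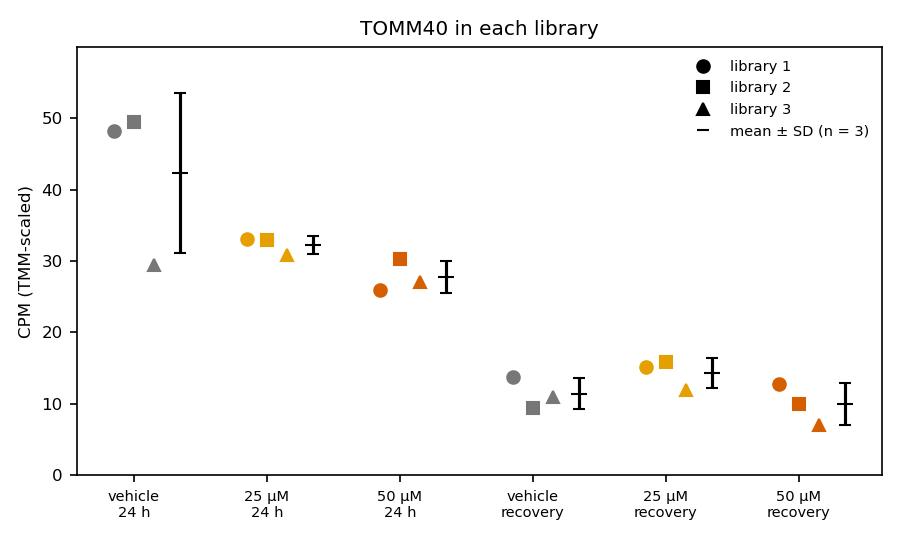
CPM of TOMM40 (y axis, from 0) in each library of the 6 groups (x axis), with means ± SD of 3 libraries. All 9 recovery libraries lie at or below 15.9 CPM and all 9 libraries taken at 24 h at or above 25.9 CPM.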

How the data were processed

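RNA from HMC3 cells was extracted with TRIzol and made into Smart-seq2 libraries with poly(A) selection, per the labels' protocols. That workflow uses PCR without molecular identifiers and does not mark strand. The authors deposited raw counts per gene symbol, per the file headers, with 1 column per library and 0 columns that no label matched. Trimmomatic, STAR and DESeq2 and the builds GRCh38 and hg38 are named, per the submitters' processing notes. The annotation, the counting tool and its handling of strand and of shared reads are not stated there. Another 18 samples, H3K27ac CUT&Tag libraries, were not analysed here.

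Counts of all 18 RNA-seq libraries were fitted together with edgeR 4.0.16 (R 4.3.3) with 1 mean per group, after filterByExpr (minimum count 10, 9847 genes with 99.2% of the counts) and TMM scaling. The quasi-likelihood test was two-sided, and SE is the log2 change divided by the root of its F statistic. Depth limits precision: the median biological coefficient of variation was 16%, and total counts of the 50 µM recovery libraries were between 755905 and 1228047. Scripts were tested on simulated data. RefSeq (GRCh38.p14) gave positions, spans and promoters and matched 34 of 34 members. The spans of 20 of them overlap another gene, so that their counts may hold reads of both. TIMM29, listed by its older symbol C19orf52, is no member by the rule.

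Alternatives were RLE size factors, no filter, DESeq2 1.42.0, a replicate block, each comparison's own libraries alone, each library left out in turn, and removal of a loess trend with gene span from each library. Members and gene lists were chosen with earlier results of these data known. Members with values by library are the 14 with the largest called change plus HSPD1, HSPE1, HSPA9 and LONP1. From the further lists, genes called at 50 µM and 24 h are named with their log2 changes, while after recovery only some of the called genes are named. TIMM23 and TOMM40, and the LONP1 neighbour RPL36, lie outside that rule and were given values by library after their values were seen, and HSF1 and AFG3L2 were likewise named after theirs were seen.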

Additional observations from a re-analysis of the deposited data

Results flagged for a closer look

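In 11 import genes the 50 µM effect after recovery differed from that at 24 h by a test of the difference itself (edgeR, all genes adjusted together). That is 33.3% of the members, against 19.1% of all genes. The log2 difference, recovery minus 24 h, was positive in 9: 3.17 for HSPE1, 2.48 for TOMM5, 2.48 for TOMM6, 2.13 for TOMM7, 1.69 for TIMM8B, 1.55 for TIMM10, 1.29 for TOMM22, 0.90 for TIMM17A and 0.90 for TIMM22. It was -0.80 for HSPA9 and -2.23 for LONP1, the matrix genes that rose at 24 h. HSPE1, TOMM5, TOMM6, TIMM22, HSPA9 and LONP1 stayed past the threshold in 18 of 18 alternative settings. TIMM8B was lost in 14 of them, TIMM17A in 11, TIMM10 in 7, TOMM7 in 3 and TOMM22 in 1. The 50 µM recovery libraries with their high share of ribosomal protein counts enter each of these differences, and the part of that share was not tested. Groups of 3 libraries are too small for a test of single outlying libraries.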

How the results depend on the processing

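Across 654 values of single called genes under the alternatives, 547 kept their direction and call, 107 lost the call and 0 reversed. With each comparison's own 6 libraries alone (all 4 groups' for the difference of effects), members called were 3 at 25 µM and 24 h (against 1), 8 at 50 µM and 24 h (against 2), 8 after recovery from 50 µM (against 18), 3 between doses at 24 h (against 1) and 0 between doses after recovery (against 15). DESeq2 gave 2 at 25 µM and 24 h. Without the filter 4 were called at 50 µM and 24 h, and 0 between doses at 24 h. With the gene-span trend removed, 7 were called for the difference of the 50 µM effect (against 11). Leaving out 1 library at a time gave 0 to 0 at 25 µM and 24 h, 2 to 3 at 50 µM and 24 h, 14 to 20 after recovery from 50 µM, 0 to 0 and 9 to 21 between doses at 24 h and after recovery, and 7 to 17 for the difference of the 50 µM effect. Causes of these shifts were not tested. Replicate numbers are shared between groups, but deviations of same-numbered libraries correlated between -0.338 and 0.394, and no comparison had all 3 pairs above 0.1. With the replicate block 0 members were called between doses at 24 h and 10 for the difference of the 50 µM effect. Over all genes, own libraries alone gave 423, 2886 and 881 calls at 25 µM and 50 µM at 24 h and after recovery from 50 µM (against 122, 1848 and 2800), 1952 and 0 between doses at 24 h and after recovery (against 729 and 2172), and 35 and 1036 for the difference of the 25 µM and the 50 µM effect (against 2 and 1878). For the difference of the 25 µM effect DESeq2 called 37 genes and the fit without a filter 10. After recovery from 25 µM the fit without a filter called 5 genes and DESeq2 1, against 0. Between the vehicle groups 96 genes were called, 224 without a filter, 152 by DESeq2, 54 with the replicate block and 12 to 77 with a library left out. With a library left out all-gene calls were 49 to 76 at 25 µM and 1133 to 1698 at 50 µM at 24 h, 1604 to 4018 after recovery from 50 µM, 354 to 554 and 935 to 3710 between doses at 24 h and after recovery, and 1198 to 3301 for the difference of the 50 µM effect. Total counts from 582233 limit small changes in genes of few counts such as HSPE1 and TIMM9.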
